A study of Mus musculus with 6 samples.

Results

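The transcripts of 9 genes that mark mesothelium and simple epithelia were followed in whole thoracic aortas of adult mice, out of 52636 genes in the count table. They were taken by name, with earlier results of these data known. Of these, 5 are mesothelial surface or regulatory genes (Msln, Upk3b, Upk1b, Wt1 and Lrrn4) and 4 are keratins of simple epithelia (Krt8, Krt18, Krt19 and Krt7). RNA was sequenced in bulk in 4 libraries of C57BL/6J mice left untreated (WT) and 2 libraries of Tgfbr1/2iSMCKO mice (KO), all 12 weeks of age. The KO mice carried loxP-flanked alleles of both receptor genes (Tgfbr1f/f.Tgfbr2f/f) along with Myh11-CreERT2 and mT/mG, a reporter of recombination. In them, tamoxifen switches on a Cre recombinase driven by the smooth muscle cell (SMC) gene Myh11, which cuts both TGF-β receptor genes in SMCs while a reporter marks the recombined cells. Tamoxifen was given to the KO mice alone, at 2 mg per day i.p. for 5 days from 11 weeks of age, so the effects of genotype at each of these loci and of tamoxifen cannot be told apart. Per the study's methods, the Cre transgene lies on the Y chromosome, lungs and mediastinal tissue were removed before the vessel was cut out from above the root down to the diaphragm, and RNA came from aortas without hemorrhagic lesions.

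Mesothelium is a single layer of flattened cells that lines the pleural, pericardial and peritoneal cavities and covers the organs in them. Like simple epithelia it is built on keratin filaments, which assemble from pairs of a type I keratin (Krt18 and Krt19 here) and a type II keratin (Krt8 and Krt7 here). The thoracic aorta runs beside the pleura and its first part lies within the pericardial sac. In bulk RNA, a change in the number of cells of a type and a change in the RNA of each cell cannot be told apart.

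The libraries held 19650983 to 28860598 estimated counts. The match of table columns to groups was inferred from the column codes. The study gives its replicates as mice, in the same numbers as the libraries. Normalised counts (counts divided by a size factor for depth) of the targeted genes overlapped between groups. Tgfbr1 ranged from 3858 to 5420.2 in WT and had 5780.4 in KO-1 and 4568 in KO-2. Tgfbr2 ranged from 5327 to 7042 in WT and had 5784 in KO-1 and 5937 in KO-2. These counts cover whole genes and all cells of the vessel, so they do not decide whether the KO label is right. Whether exons beyond the deleted parts, and cells without Cre, kept them up was not tested. The KO libraries stood apart from each other, with mitochondrial transcripts at 2.62% to 4.44% of counts in WT, 3.38% in KO-1 and 11.7% in KO-2. A gene was called when it differed by more than 2-fold with DESeq2 adjusted p below 0.05. This called 962 of 17070 tested genes (5.64%), and 3.54% of tested genes were called higher in KO.

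Promoter sequences were matched for 5 of the 9 genes (RefSeq, build GRCm38.p6) and are printed for 4. Krt8 and Krt18 are shown because their proteins form a filament pair and the genes lie 23697 bases apart on chromosome 15, yet their levels and their spread between libraries were unlike. Upk3b and Lrrn4 are shown as the mesothelial genes with a matched window, whose levels were called higher in KO. Each sequence runs 5′ to 3′ on the strand of its gene through the start annotated in RefSeq. The gene positions given below are from GENCODE, whose starts can differ. Capitals mark each match, on either strand, to TATAAA (the TATA box core), GGGCGG (a GC box), CAGACA (the CAGA motif that Smad proteins bind) or GGAATG (the core that TEAD factors bind).
Krt8 promoter, chr15:102004293-102004592, minus strand: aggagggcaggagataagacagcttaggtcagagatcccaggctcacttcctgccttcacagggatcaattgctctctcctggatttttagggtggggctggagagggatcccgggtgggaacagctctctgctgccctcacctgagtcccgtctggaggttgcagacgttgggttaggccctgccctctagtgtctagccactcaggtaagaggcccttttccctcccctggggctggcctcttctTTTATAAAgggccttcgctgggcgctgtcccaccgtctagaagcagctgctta
Krt18 promoter, chr15:102027966-102028265, plus strand: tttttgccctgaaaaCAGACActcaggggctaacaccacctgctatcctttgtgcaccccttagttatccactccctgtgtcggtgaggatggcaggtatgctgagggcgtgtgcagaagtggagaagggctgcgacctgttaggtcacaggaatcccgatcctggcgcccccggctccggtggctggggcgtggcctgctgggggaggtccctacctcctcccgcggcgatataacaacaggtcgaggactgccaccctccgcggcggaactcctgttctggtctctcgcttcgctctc
Upk3b promoter, chr5:136038246-136038545, plus strand: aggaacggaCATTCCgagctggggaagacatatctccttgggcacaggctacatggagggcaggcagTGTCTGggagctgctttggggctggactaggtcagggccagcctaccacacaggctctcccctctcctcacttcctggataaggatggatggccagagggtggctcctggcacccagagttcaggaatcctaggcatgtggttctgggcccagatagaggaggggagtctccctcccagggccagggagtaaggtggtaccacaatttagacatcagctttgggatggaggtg
Lrrn4 promoter, chr2:132880813-132881112, minus strand: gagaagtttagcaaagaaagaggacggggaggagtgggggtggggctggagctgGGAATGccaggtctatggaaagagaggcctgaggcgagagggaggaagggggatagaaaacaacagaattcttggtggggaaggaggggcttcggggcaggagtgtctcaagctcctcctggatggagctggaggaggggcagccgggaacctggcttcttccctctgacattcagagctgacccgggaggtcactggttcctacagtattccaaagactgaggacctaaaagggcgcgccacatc

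The Krt8 window held TATAAA, in overlapping matches on both strands, and was the single window among the 5 genes to hold it. These matches begin 3 and 1 bases upstream of the RefSeq start and so run across it. GENCODE starts Krt8 further upstream, at 102004482, so by its positions the matches lie inside the gene. Of all 32851 promoter windows, 13.6% held this motif. CAGACA lay in the windows of Krt18, Upk3b and Krt7, and in 21.04% of all windows. GGAATG lay in those of Lrrn4 and Upk3b, and in 14.7% of all windows. The Krt7 window (chr15:101412153-101412452, plus strand) held GGGCGG in 4 places, and 35.7% of all windows held it at least once. By GENCODE positions this window lies inside Krt7, which starts there at 101411043. GC content ran from 58.0% to 66.3% in the 5 windows, against a median of 52.7% over all windows. A match shows that the letters are present and does not show that a factor binds.

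Mesothelial transcripts were higher in KO aortas. The question here was how this group of genes differs after receptor deletion in SMCs, and it was read from a DESeq2 fit over all genes. All 5 mesothelial genes were called higher in KO, with fold changes from 3.76 (Msln) to 9.48 (Wt1), and in each of them both KO libraries lay above every WT library. Of the keratins, Krt19 was called higher (8.99-fold), and Krt8, Krt7 and Krt18 were not called. This makes 6 of 9 members called, beside the 3.54% of tested genes called higher. The members were chosen with earlier results of these data known, so this contrast is not an independent test. All 9 members passed the filter on low counts. In 8 of the 9, with Krt7 as the exception, both KO libraries were above all WT libraries, which was so for 17.9% of tested genes.

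**Figure D1:**
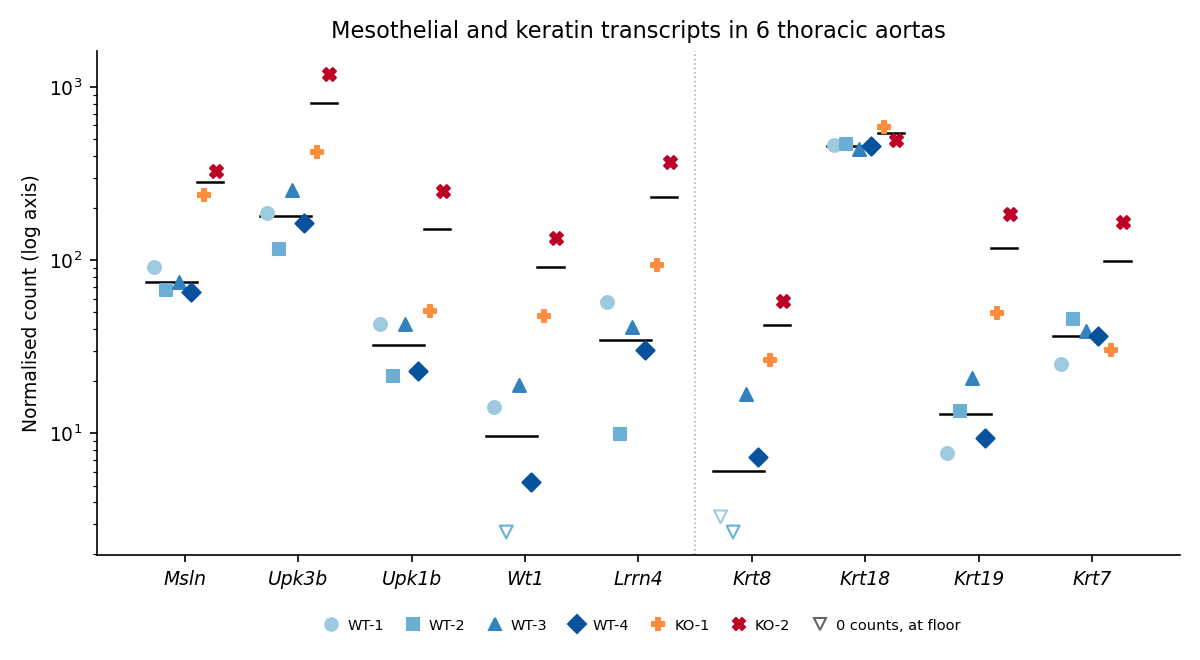
Normalised count (log axis) of each gene in each of the 6 libraries, with a black line at the mean of each group, mesothelial genes to the left of the dotted line and keratins to the right. Open triangles stand at the floor of 3 counts for libraries with 0 counts. KO-2 is the highest library for 8 of 9 genes, and Krt18 is the gene on which the 6 libraries lie closest together, between 440.4 and 589.6.

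Msln (ENSMUSG00000063011.7, chromosome 17, 25748613 to 25754378, GRCm38) encodes mesothelin, a glycoprotein anchored to the mesothelial cell surface. Its normalised count was 91.2, 67.4, 74.9 and 65.8 in WT-1 to WT-4, 237 in KO-1 and 327 in KO-2. The WT libraries lay close together, and both KO libraries were well above them. Mean levels were 74.8 ± 11.6 (SD, n = 4) for WT and 282 ± 63.8 (SD, n = 2) for KO. The fitted log2 fold change was 1.91 ± 0.31 (SE throughout for fitted changes), with DESeq2 adjusted p = 7.18e-08. It was the member on which the KO libraries differed least from each other among those called, with KO-2 at 1.38 times KO-1.

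Upk3b (ENSMUSG00000042985.7, chromosome 5, 136038496 to 136046487) encodes uroplakin IIIb, a membrane protein first known from the urothelium that is also made by mesothelial cells. Its normalised count was 188, 116, 253 and 163 in WT-1 to WT-4, 420.4 in KO-1 and 1194 in KO-2. Per length of exon it was the most abundant mesothelial member in every library. The groups did not overlap, and KO-2 was 2.84 times KO-1. The log2 fold change was 2.16 ± 0.39 (DESeq2 adjusted p = 3.00e-06).

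Upk1b (ENSMUSG00000049436.5, chromosome 16, 38773184 to 38800328) encodes a tetraspanin that pairs with uroplakins of the Upk3 type. Its normalised count was 42.8, 21.6, 42.9 and 23.0 in WT-1 to WT-4, 50.8 in KO-1 and 252 in KO-2. KO-1 stood just above the highest WT library, so the change rested mostly on KO-2, at 4.96 times KO-1. The log2 fold change was 2.21 ± 0.60 (DESeq2 adjusted p = 0.0045). The other uroplakins of the bladder plaque did not accompany the pair. Upk2, Upk3a and Upk3bl had 0 counts in all 6 libraries, and Upk1a had at most 7.69 normalised counts.

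Lrrn4 (ENSMUSG00000043110.2, chromosome 2, 132868305 to 132880891) encodes a transmembrane protein with leucine-rich repeats. Its normalised count was 57.1, 9.88, 40.9 and 30.3 in WT-1 to WT-4, 94.1 in KO-1 and 369 in KO-2. Its WT libraries were spread widely, and even so both KO libraries exceeded them. The log2 fold change was 2.75 ± 0.62 (DESeq2 adjusted p = 0.000285).

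Wt1 (ENSMUSG00000016458.14, chromosome 2, 105126529 to 105173616) encodes a zinc finger transcription factor of the epicardium and other mesothelia, and is the one nuclear regulator among the members. Its normalised count was 14.3, 0, 19.0 and 5.22 in WT-1 to WT-4, 47.8 in KO-1 and 134 in KO-2. The 0 in WT-2 allows up to 3 counts, or 2.69 normalised counts. At 3.25 ± 0.89 on the log2 scale (DESeq2 adjusted p = 0.00492) it had the largest fitted change of the 9 and the lowest level per length in WT. Its call was lost when WT-1 (adjusted p-value 0.276) or WT-4 (0.307) was left out of the DESeq2 fit.

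The keratins divided into Krt18, with little spread between libraries, and 3 sparse genes. Krt18 (ENSMUSG00000023043.7, chromosome 15, 102028180 to 102032027), the type I partner of Krt8, had 460.2, 469.7, 440.4 and 456 normalised counts in WT-1 to WT-4, 589.6 in KO-1 and 494 in KO-2. Its coefficient of variation over the WT libraries was 2.67%, the lowest of the 9 members, for which it otherwise ran from 15.5% (Msln) to 133% (Krt8). Both KO libraries were above the WT range, by a small amount. The log2 fold change was 0.25 with a 95% interval from -0.13 to 0.63 (DESeq2 adjusted p-value 0.497), an interval that leaves out a 2-fold change. KO-1 was the higher KO library for this gene alone among the 9.

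Krt19 (ENSMUSG00000020911.14, chromosome 11, 100140810 to 100148665), a type I keratin of simple epithelia and mesothelium, had 7.69, 13.5, 20.97 and 9.40 normalised counts in WT-1 to WT-4, 49.3 in KO-1 and 184 in KO-2. The groups did not overlap, and the lower KO library was well above the highest WT library. The log2 fold change was 3.17 ± 0.64 (DESeq2 adjusted p = 3.80e-05).

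Krt8 (ENSMUSG00000049382.10, chromosome 15, 101996698 to 102004482), the type II partner of Krt18, had 0, 0, 16.98 and 7.31 normalised counts in WT-1 to WT-4, 26.6 in KO-1 and 57.8 in KO-2. The counts of 0 allow up to 3.30 normalised counts in WT-1 and 2.69 in WT-2. The groups did not overlap, yet the gene was not called: its log2 fold change of 2.79 ± 1.22 had a 95% interval from 0.40 to 5.19 and a DESeq2 adjusted p-value of 0.135. Without WT-3, the WT library with the most Krt8, it was called (log2 fold change 4.12, adjusted p-value 0.0306). Reads of Krt8 may also be shared with the non-coding gene Gm36026 on the opposite strand, over 101 exonic bases, since it is not stated whether counting used strand. Sharing of Krt8 reads with a processed pseudogene is also possible and was not tested.

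Krt7 (ENSMUSG00000023039.17, chromosome 15, 101411043 to 101430313), a type II keratin of ducts and mesothelium, had 25.3, 45.8, 38.9 and 36.5 normalised counts in WT-1 to WT-4, 30.4 in KO-1 and 167 in KO-2. KO-1 lay within the WT range and KO-2 far above it, so the KO libraries disagreed in direction. The log2 fold change was 1.42 with a 95% interval from 0.21 to 2.62 (DESeq2 adjusted p-value 0.13). Without KO-2 it was -0.26 (adjusted p-value 0.887), and without KO-1 it was 2.19 and called (adjusted p-value 0.000756). An antisense gene, Gm671, overlaps 77 exonic bases of Krt7.

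**Figure D2:**
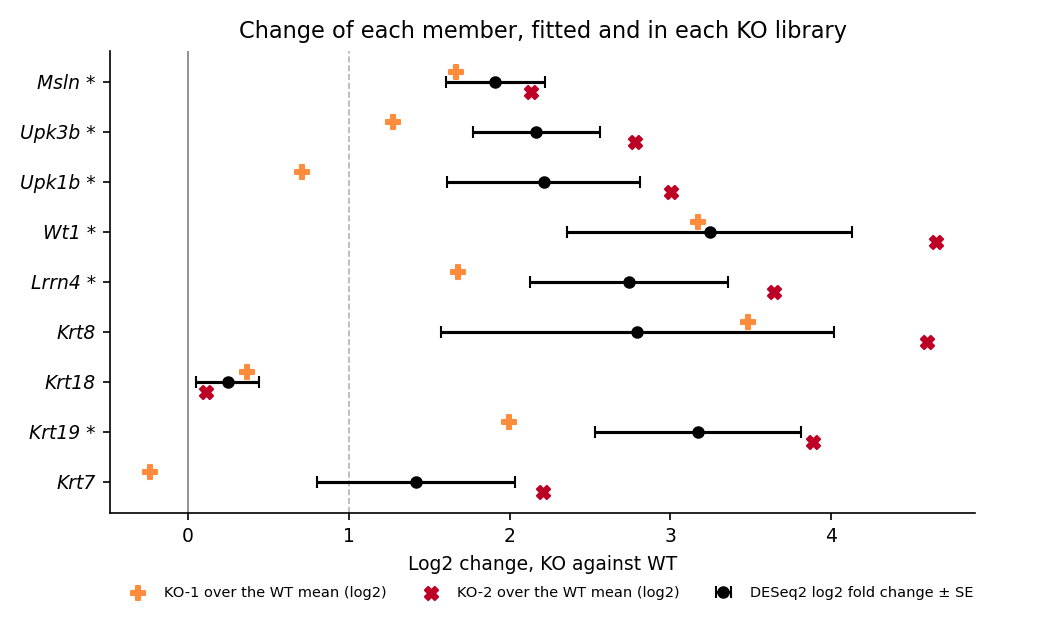
Log2 change in KO against WT for each gene. Black points and bars are the DESeq2 log2 fold change ± its standard error, coloured marks are each KO library over the mean of the 4 WT libraries on the log2(normalised count + 0.5) scale, the dashed line is 2-fold, and an asterisk marks called genes. KO-2 lies to the right of KO-1 for each gene but Krt18, and KO-1 lies left of 0 for Krt7 alone (-0.24).

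The size of the change differed between the KO libraries. KO-2 exceeded KO-1 in 8 of 9 members, by 1.38 (Msln) to 5.51 times (Krt7). Relative to the WT mean, KO-1 ran from 1.56-fold (Upk1b) to 4.97-fold (Wt1) over the mesothelial genes and KO-2 from 4.37-fold (Msln) to 13.9-fold (Wt1). Summed over these 5 genes, the level was 16.4 counts per 1000000 in WT-1 (95% Wilson interval 14.8 to 18.2), 9.26 in WT-2 (8.16 to 10.5), 18.0 in WT-3 (16.4 to 19.8) and 12.3 in WT-4 (10.9 to 13.8). It was 38.8 in KO-1 (36.6 to 41.1) and 94.2 in KO-2 (90.0 to 98.6). These intervals cover counting error only. By more than this error, WT-2 lay below WT-4, both lay below WT-1 and WT-3, and KO-1 lay below KO-2. The intervals of WT-1 and WT-3 overlapped.

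Leaving out KO-2 had the largest effect on the calls. Without it, Msln alone of the 9 was called (log2 fold change 1.68, adjusted p-value 0.000545), where 1.93% of tested genes were called higher, and the spread of the lone KO library was taken from the WT libraries. Upk3b then had an adjusted p-value of 0.0541, Krt19 0.191, Lrrn4 0.363, Wt1 0.433 and Upk1b 0.687. Without KO-1, 7 of 9 were called, Krt7 being the addition, where 4.72% of tested genes were called higher. edgeR's quasi-likelihood test called 3 of 9 (Msln, Upk3b and Krt19), where 2.43% of tested genes were called higher, with adjusted p-values of 0.0532 for Lrrn4, 0.0733 for Upk1b and 0.0826 for Wt1. Msln was the member called in the reported fit and in all 13 alternatives.

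**Figure D3:**
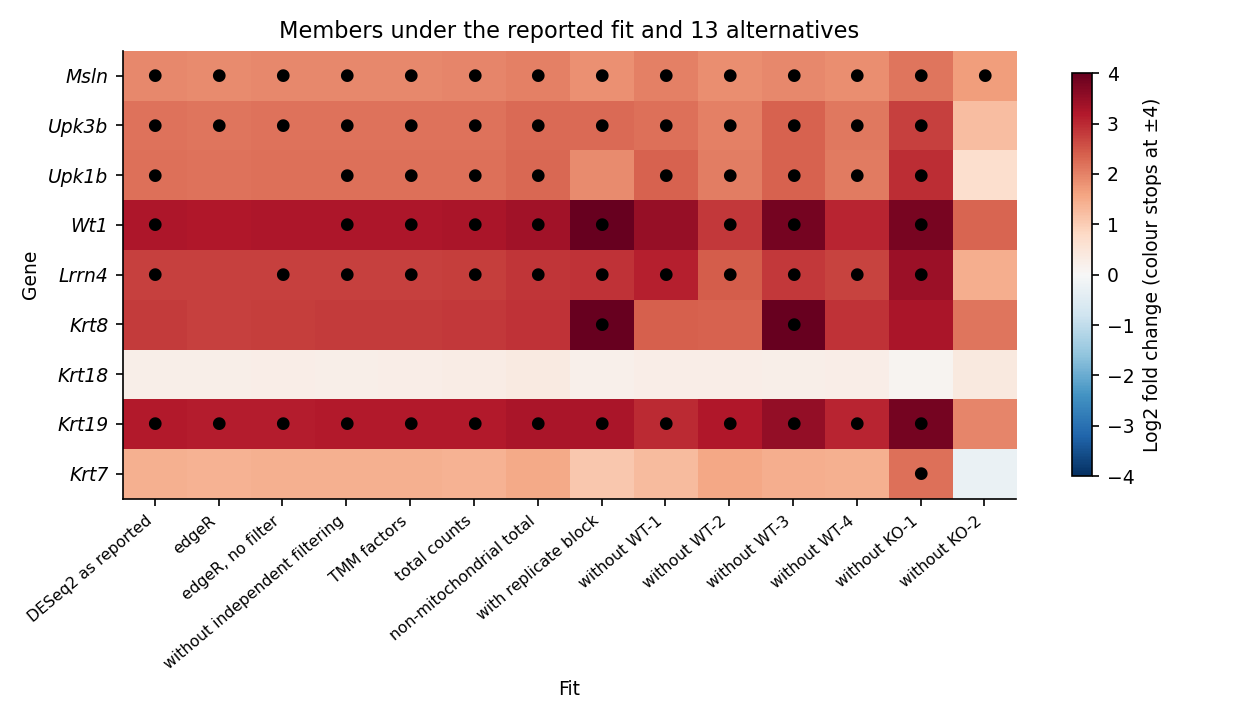
Log2 fold change (colour, stopping at ±4) of each gene in the reported fit and 13 alternatives, with a black dot where the gene was called. Msln carries a dot in all 14 columns and Krt18 in none, and the column without KO-2 holds a single dot.

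Levels of different genes were compared per length of merged exons (normalised count per kilobase). In WT the order was Krt18 (318 ± 8.50, SD, n = 4), Upk3b (50.9 ± 16.1), Msln (24.4 ± 3.79), Upk1b (15.6 ± 5.71), Lrrn4 (9.30 ± 5.33), Krt19 (6.94 ± 3.19), Krt7 (5.20 ± 1.21), Krt8 (3.10 ± 4.11) and Wt1 (1.55 ± 1.39). Krt18, Upk3b and Msln were each separated from the next gene in this order, and from Upk1b down each neighbouring pair had libraries that overlapped. In KO the order began in the same way, with Krt18 (377 ± 47.0, SD, n = 2), Upk3b (229 ± 155), Msln (92.0 ± 20.8) and Upk1b (72.5 ± 68.1). Below them, Krt19 (63.0 ± 51.5) and Lrrn4 (62.3 ± 52.3) were level, and Krt8, Wt1 and Krt7 had 21.5, 14.7 and 14.01. Krt18 and Upk3b, and Upk3b and Msln, were separated here too, and each later pair overlapped.

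The balance of keratins moved with these changes. Krt18 made up 85.1% to 93.3% of the counts of the 4 keratins in WT, 84.7% in KO-1 and 54.7% in KO-2. Per length, Krt8 was at 0% to 2.83% of the level of its partner Krt18 in WT, 3.31% in KO-1 and 8.58% in KO-2. Krt18 transcripts were therefore in large excess of those of either type II keratin in every library. Krt8, Krt19 and Krt7 together took 1.38 to 3.21 counts per 1000000 in WT, 4.85 in KO-1 (95% Wilson interval 4.11 to 5.72) and 16.9 in KO-2 (15.2 to 18.9).

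**Figure D4:**
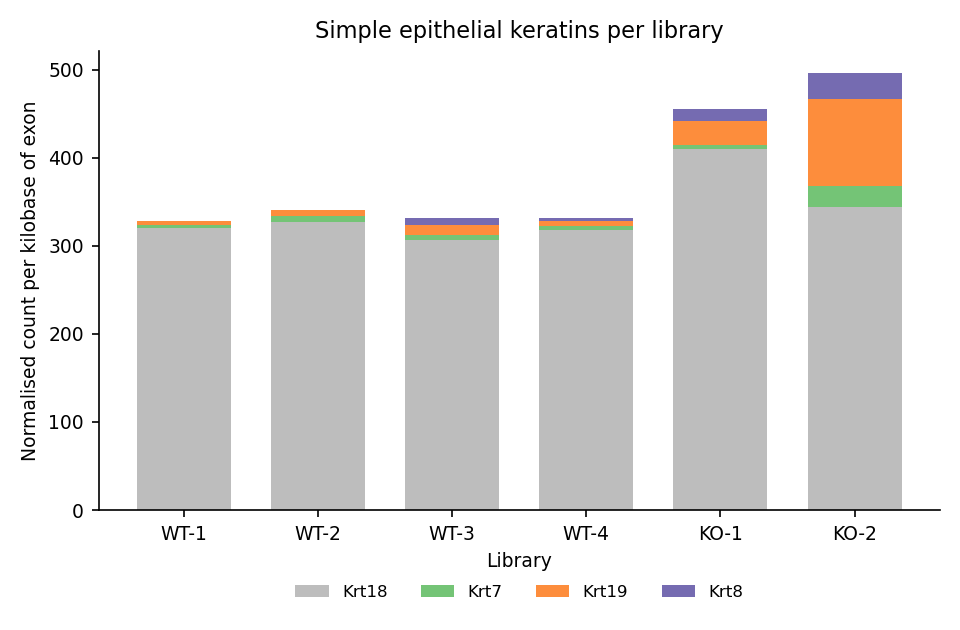
Stacked normalised count per kilobase of exon of the 4 keratins in each library. Krt18 (grey) fills most of each bar, and Krt19 (orange) and Krt7 (green) are widest in KO-2.

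Among all 53 keratin genes in the table, 39 had 0 counts in every library and 8 were tested, of which Krt19 alone was called. Krt80, a type II keratin, was the most abundant after Krt18, with 221, 276, 329 and 358 normalised counts in WT-1 to WT-4, 242 in KO-1 and 165 in KO-2 (log2 fold change -0.54, adjusted p-value 0.267). Krt10, a keratin of differentiated stratified epithelium, had 38.1 to 66.8 over all libraries. The basal keratin Krt5 and the stratified keratins Krt4, Krt6a and Krt15 were at 0 throughout.

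Within WT, 4 of the 5 mesothelial genes had the same lowest library. WT-2 was the lowest WT library for Upk3b, Upk1b, Wt1 and Lrrn4, and WT-3 was the highest for Upk3b, Upk1b and Wt1. WT-3 was also the highest for Krt8 and Krt19. Lung epithelial transcripts were high in the same library: Sftpc, a surfactant protein of alveolar type II cells, had 59.9 normalised counts in WT-3 and 30.7 in KO-2 and 0 in the other 4 libraries. The summed level of 9 lung epithelial genes was 30.5 to 35.1 in the other WT libraries, 211 in WT-3, 85.7 in KO-1 and 175 in KO-2. Of the 9, 4 were tested and none was called in the reported fit, and Nkx2-1 was at 0 throughout. Without WT-3 the airway gene Scgb1a1 was called higher in KO, and without KO-2 Sftpc was called lower. The part of lung tissue in the members' levels was not tested. Without WT-3, all 6 calls were kept and Krt8 was added.

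Other genes that mark mesothelium were examined as a list of 18. Of these, 7 were called higher, 1 was called lower, 8 were tested and not called and 2 had no adjusted p-value. The median log2 fold change of the 16 with a mean of at least 10 normalised counts was 0.99, against 0.02 for all 15491 tested genes at that level. Aldh1a2, which makes retinoic acid in the epicardium and other mesothelia, had 43.9, 56.6, 78.9 and 44.9 normalised counts in WT-1 to WT-4, 189.7 in KO-1 and 324 in KO-2 (log2 fold change 2.19 ± 0.38). Muc16, the membrane mucin of serosal surfaces, had 29.7, 8.98, 54.9 and 29.2 in WT, 104 in KO-1 and 591 in KO-2 (log2 fold change 3.50 ± 0.98, DESeq2 adjusted p = 0.0065). Without KO-2, 3 of the 7 were called (Aldh1a2, Gpm6a and C3). Both Aldh1a2 and Muc16 resembled the 5 mesothelial members in that KO-2 exceeded KO-1 and KO-1 exceeded every WT library.

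The other genes of the list called higher were Gpm6a (log2 fold change 2.15), a membrane glycoprotein, Bnc1 (2.06), a zinc finger protein, Ezr (1.42), the ezrin that links membrane to actin, C3 (1.54), the central complement component, and Efemp1 (1.32), a fibulin. C3 and Efemp1 are also made by fibroblasts. The call of Bnc1 was lost without WT-1, WT-2, WT-3 or KO-2, without independent filtering, with the replicate block and in edgeR with and without a filter. Prr15 was called lower, from 277 to 384 in WT to 115 in KO-1 and 167 in KO-2 (log2 fold change -1.26). Pdpn, podoplanin, passed the adjusted p-value and not the 2-fold limit, also lower (-0.79, adjusted p-value 0.0134), and Aldh1a1 did so in the higher direction (0.82, adjusted p-value 0.00576). Pkhd1l1 was at a log2 fold change of -0.0014 ± 0.28. Among markers named for their low counts, Itln1 was at 0 in all libraries, and Calb2 had 3.59 normalised counts in WT-2 and 0 elsewhere.

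Epicardial and pericardial regulators were mixed. Of 7, 4 were called higher, which include Wt1 and Aldh1a2 already described. Gata4 had 25.1 to 70.9 normalised counts in WT, 124 in KO-1 and 189 in KO-2 (log2 fold change 1.99, adjusted p-value 0.00128), and Tcf21, a factor of epicardium-derived and other fibroblasts, had 44.9 to 78.0 in WT, 149 in KO-1 and 204 in KO-2 (1.53, adjusted p-value 0.00101). Without KO-2, Aldh1a2 alone of the 7 was called. In the reported fit, 5 of the 7 were higher at an adjusted p-value under 0.05, with Tbx20 the addition to the 4 called. Tbx18 was not called and was lower by the adjusted p-value (-0.46, 0.0315), and Sema3d was at 0.12 (0.841).

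General epithelial genes were mostly too sparse to test. Of 15 epithelial junction genes and regulators, 5 were tested and none was called, where 5.64% of all tested genes were called. Epcam, Cldn4, Esrp1, Grhl2 and Elf3 had 0 counts in every library. Cdh1, the E-cadherin of most epithelia, had 8.99 normalised counts in WT-3 and 2.28 in KO-1 and was at 0 elsewhere. Cdh3 and Cldn3, the most abundant of the list, had log2 fold changes of 0.43 (adjusted p-value 0.395) and 0.10 (0.93). Of 11 stratified epithelial genes 3 were tested, of 5 thymic epithelial genes 1 was tested, and none of these was called. With so few tested, a share below that of all genes cannot be read from these lists. For these 3 lists and the lung epithelial list, 0 genes had an unadjusted DESeq2 p-value under 0.05, and edgeR called 0.

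Among 14 genes of desmosomes and plakins, to which keratin filaments attach, 10 were tested and 2 were called, both higher. Of all tested genes, 3.54% were called higher. Dsg2, a desmosomal cadherin, was at or below 3 counts in each WT library and had 65.3 normalised counts in KO-1 and 29.5 in KO-2, at least 15.6-fold higher than the floor of 3 counts per library. Dsc2, another desmosomal cadherin, had 3.13 to 11.7 in WT, 79.7 in KO-1 and 33.2 in KO-2 (log2 fold change 3.15, adjusted p-value 0.000954). Both were higher in KO-1 than in KO-2, unlike the mesothelial members, and neither was called without KO-1, nor was Dsg2 without KO-2. Desmoplakin (Dsp) and plectin (Plec), the linkers of intermediate filaments, passed the adjusted p-value and not the 2-fold limit, in the lower direction (log2 fold changes -0.75 and -0.70). Of 14 other intermediate filament genes 10 were tested and none was called, where 5.64% of all tested genes were called. With 10 tested, a share below that of all genes cannot be read. The most abundant, Vim, the filament protein of mesenchymal cells, was at -0.32 (adjusted p-value 0.188). Of the 14, 3 had an unadjusted DESeq2 p-value under 0.05 and edgeR called 0.

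Markers of other tissues also differed, between the groups or between the KO libraries. The cardiac sum exceeded the WT range in KO-1 alone, and the white adipocyte sum in KO-2 alone. The 10 cardiac muscle genes summed to 3107 to 4491 normalised counts in WT, 30541 in KO-1 and 4198 in KO-2, and 5 of them were called higher (1 without KO-1). Mybpc3, a cardiac sarcomere protein, had 4.99 to 23.1 in WT, 993 in KO-1 and 12.3 in KO-2, and its log2 fold change was -0.060 without KO-1. The 7 brown adipocyte genes summed to 1209 to 1626 in WT, 4235 in KO-1 and 13827 in KO-2 (5 called higher), and the 7 white adipocyte genes to 14794 to 17099.5 in WT, 15352 in KO-1 and 47312 in KO-2 (3 called higher). The 5 red blood cell genes summed to 859 to 5989.6 in WT, 11076 in KO-1 and 61684 in KO-2 (4 called higher). Without KO-2, 2 brown adipocyte genes, 0 white adipocyte genes and 1 red blood cell gene were called higher in the DESeq2 fit. KO-2 was the library with the highest mesothelial, fat and red cell sums, and KO-1 the library with the highest cardiac sum.

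The sums of 8 endothelial genes were 13063 to 22894 in WT, 32509 in KO-1 and 31344 in KO-2 (3 called higher), and those of 8 macrophage genes 9378 to 11373 in WT, 15843 in KO-1 and 18307 in KO-2 (3 called higher). The 7 lymphocyte genes summed to 29.6 to 87.9 in WT, 101 in KO-1 and 427 in KO-2, and none was called. In the reported DESeq2 fit, none of 7 smooth muscle, 8 fibroblast and 5 Schwann cell genes was called, and all were tested. Of 8 skeletal muscle genes 5 were tested and none was called. Over all tested genes 5.64% were called, and a lower share cannot be read from lists this short. Of the fibroblast genes, 3 had an adjusted p-value under 0.05 without passing the 2-fold limit, all in the higher direction. Lum, a proteoglycan of fibroblasts, was just under the 2-fold limit (log2 fold change 0.997 ± 0.19) and was called higher with TMM factors, with both total-count scalings, with the replicate block, without WT-4 and without KO-2. The fibroblast genes summed to 118166 to 129492 in WT, 149559 in KO-1 and 172431 in KO-2. Ckm, of skeletal muscle, was called higher with both total-count scalings and without KO-2, Ms4a1 of lymphocytes without WT-1, and Cd79a of lymphocytes without WT-3. At an unadjusted p-value under 0.05 there were 4 lymphocyte, 4 smooth muscle, 5 fibroblast, 1 skeletal muscle and 2 Schwann cell genes, and edgeR called 0 of these lists' genes. The part of these tissues, of mitochondrial content and of dissection in the members' levels was not tested.

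**Figure D5:**
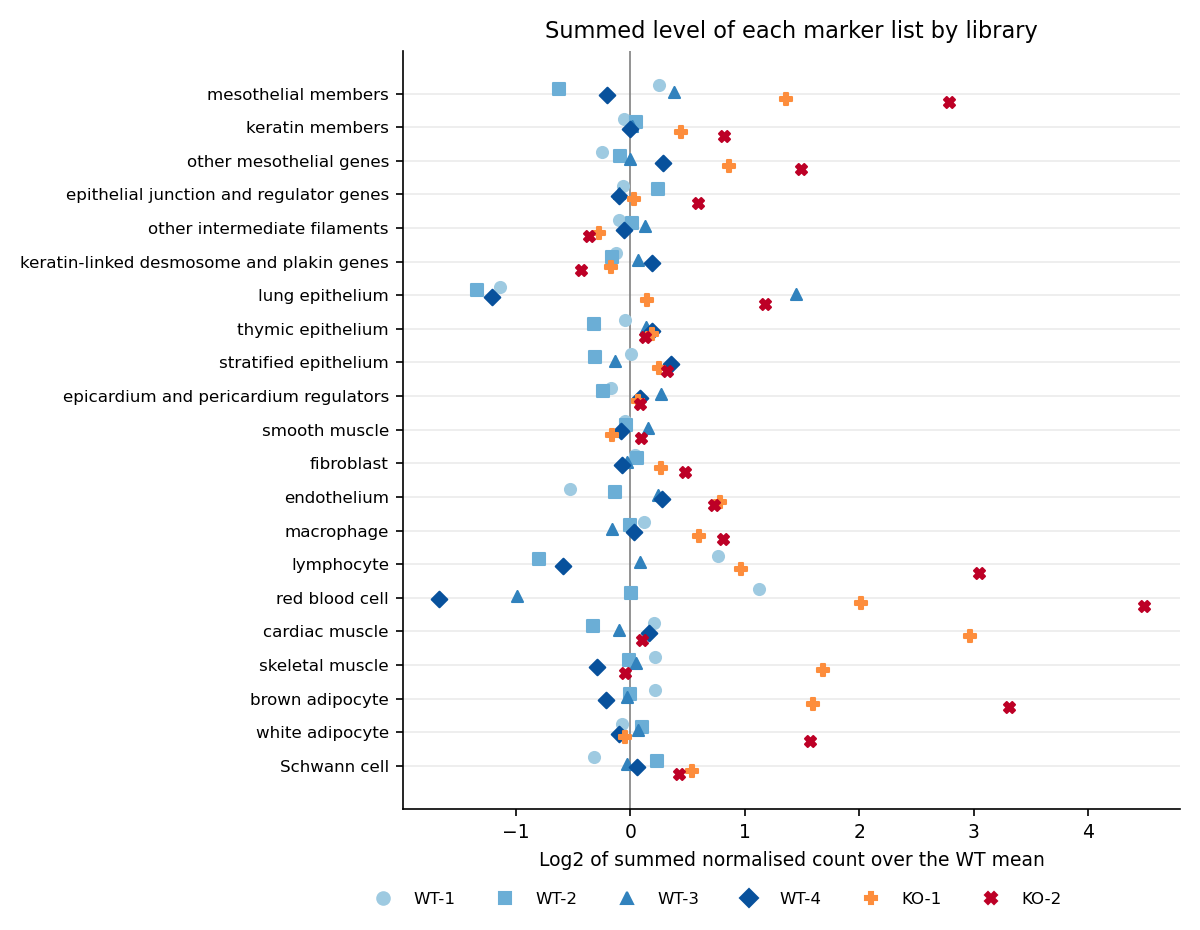
Log2 of the summed normalised count of each marker list in each library over the mean of the 4 WT libraries. The mesothelial members reach 2.56-fold in KO-1 and 6.87-fold in KO-2, the cardiac list is highest in KO-1 (7.82-fold) and the red blood cell list in KO-2 (22.5-fold).

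Genes whose pattern over the 6 libraries was most like the mean of the 5 mesothelial genes were ranked among 12591 genes with a mean of at least 50 normalised counts. Likeness was the root mean square difference of centred log2 profiles, so it is a description over 6 libraries with shared depth and content. The 10 nearest protein-coding genes outside the members included March1 (0.46), Ccr2 (0.49), Zbp1 (0.52), Cybrd1 (0.54), Muc16 (0.54), Gata4 (0.57), Ifi204 (0.58), Cyp2s1 (0.58) and Cd84 (0.61). Ccr2 encodes a chemokine receptor of leukocytes, and Muc16 and Gata4 were described above. Among the members in the mean itself, Lrrn4 was at 0.25, Upk3b at 0.41, Upk1b at 0.50 and Msln at 0.68, while Wt1 was below the level required. Ccr2 had 121, 40.4, 65.9 and 57.4 normalised counts in WT-1 to WT-4, 116 in KO-1 and 471 in KO-2, so KO-1 lay within the WT range for it, as it did for Krt7.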

How the data were processed

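RNA of 6 thoracic aorta libraries (4 WT, 2 KO) was analysed from the deposited count table. The authors trimmed reads with Trim Galore, mapped them to GRCm38 with HISAT2 and quantified genes with StringTie on GENCODE M15 gene models (processing notes in the labels name mm10). What they deposited is a table of estimated counts, 1 value per gene and library, unscaled and already in whole numbers. How coverage became whole numbers and whether strand was used are not stated in the sources used here. DESeq2 1.42.0 in R 4.3.3 (Wald test, group as the only term, independent filtering) was fitted on all genes, with Benjamini-Hochberg adjusted p-values, the test and limits the study used. edgeR 4.0.16 served as an alternative, beside other scalings, filters, a replicate block and leaving out each library. The fits were tested on simulated data. Positions, exon lengths and types came from GENCODE M21, which 52489 of 52636 genes matched. A floor of 3 counts per library was used where counts were 0, and a pseudocount of 0.5 for changes of single libraries.

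The members and gene lists were chosen with earlier results of these data known. Named genes were all members, from each list up to 6 called genes of smallest adjusted p-value and the 2 most abundant others, and the 10 nearest in pattern. Other genes in the text were chosen after their values were seen, and not every gene the rule selects is reported here.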

Additional observations from a re-analysis of the deposited data

Results flagged for a closer look

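Summed levels and members were checked for a WT library far from the other 3, and 2 of 35 were, where chance gives about 1 in 20. The summed normalised count of the lung epithelial genes was 211 in WT-3, against 30.5 to 35.1 in the other WT libraries. The summed normalised count of the epithelial junction genes and regulators was 559 in WT-2, against 442 to 455 in the others.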

How the results depend on the processing

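The count of called genes was 962 in the reported fit and 633 with edgeR's quasi-likelihood test, and 561 with the replicate number as a block (replicate block), of which 54.4% were higher against 62.8%. Of the members, 6 were called in the reported fit, 3 with edgeR and 6 with the block, which lost Upk1b (adjusted p-value 0.29) and gained Krt8. No KO library shares a number with WT-3 or WT-4. The group difference under the block therefore rested on WT-1, WT-2, KO-1 and KO-2. WT-3 and WT-4 were the WT libraries with Krt8 counts, at 17 and 7. Nothing in the labels says that a number pairs mice, and deviations of same-numbered libraries correlated at -0.087 and 0.014 over 15511 genes. Leaving out 1 library gave 636 (without KO-2) to 1284 (without KO-1) called genes and 1 to 7 called members. Over these fits the log2 fold change of Krt7 ran from -0.26 (without KO-2) to 2.19 (without KO-1), and that of the cardiac gene Mybpc3 from -0.060 (without KO-1) to 6.30 (without KO-2), so both reversed. Total counts without mitochondrial genes as scaling moved the median of all tested genes to 0.11 and the share of higher calls to 73.1%, and kept the 6 member calls. With a minimum mean of 10, 5 of the 10 genes nearest in pattern were shared. The causes were not tested. For members with counts of 0 in a WT library (Wt1, Krt8), the level there is known only as an upper bound.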
